A study of Rattus norvegicus with 18 samples.

Results

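The genes described here take up fatty acids in the heart. They were chosen by identifier from a list of 3 rat genes, given as Cd36 (ENSRNOG00000005906), Lpl (ENSRNOG00000012181) and Fabp3 (ENSRNOG00000012879), and all 3 were among the 37262 genes of the deposited tables. RNA sequencing of rRNA-depleted heart RNA covered 18 libraries, 6 in each of 3 groups. The first group is the spontaneously hypertensive rat (SHR) treated with QDG, called QDG below. The second is SHR given NS, called SHR, and the third is the Wistar-Kyoto rat (WKY), the normotensive strain usually set beside SHR. QDG and SHR therefore share the hypertensive strain and differ in the agent. The labels expand neither QDG nor NS, do not say whether WKY rats also received NS, and give no age or sex. They also do not say that each library came from its own animal, and the spread behind the p-values is that between libraries, which may be technical.

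Heart muscle covers most of its energy need by burning long-chain fatty acids, which reach the cell by a short chain of steps. Lpl is lipoprotein lipase, which is anchored in the capillary wall and frees fatty acids from circulating triglyceride. Cd36 is the membrane glycoprotein, also called fatty acid translocase, that helps fatty acids across the endothelial and muscle cell membranes. Fabp3 is the heart-type fatty acid binding protein, a small and abundant carrier in the muscle cytosol. Some SHR colonies carry a defective Cd36 gene, which is why this set is of interest in a comparison of SHR with WKY.

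Levels are in FPKM, which divides fragments by gene length and by the library total, so they can be compared between genes. The files name neither the unit nor the genes, and the reference used here (RefSeq, assembly GRCr8) pairs 0 of its 47357 entries with an Ensembl identifier, so the names are those given with the list. The tissue could not be checked against heart markers for the same reason. The names Lpl and Fabp3 were kept as listed. Both rows were among the most abundant in every library, at places 62 to 85 for Lpl and 41 to 69 for Fabp3. A high level goes with these names but does not identify a gene. ENSRNOG00000005906 averaged 2.29 FPKM over the 18 libraries and stood at place 12670 of 37262. This goes against its name, since Cd36 is known as an abundant transcript of heart muscle, so the row is called by its identifier below and its values are not read as the level of Cd36. In RefSeq, Cd36 on chromosome 4 is followed within 3 entries by Cd36l1 and Cd36-ps1, named as its relatives. The sources used here do not say how the authors assigned reads that match more than one such copy, so the level of any one copy is uncertain, and the part of this in the low level was not tested.

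Fabp3 and Cd36 have a promoter sequence in the RefSeq table (GRCr8), and it is shown here because Fabp3 had the largest difference relative to its error below and Cd36 the name that the data go against. Each line gives the 250 bases before the annotated start, 5′ to 3′ on the plus strand, from chr5:147935875-147936124 for Fabp3 and chr4:18246332-18246581 for Cd36. Capitals mark TATA-type letters, TATTTAA in Fabp3 and TTTATA in Cd36.
Fabp3: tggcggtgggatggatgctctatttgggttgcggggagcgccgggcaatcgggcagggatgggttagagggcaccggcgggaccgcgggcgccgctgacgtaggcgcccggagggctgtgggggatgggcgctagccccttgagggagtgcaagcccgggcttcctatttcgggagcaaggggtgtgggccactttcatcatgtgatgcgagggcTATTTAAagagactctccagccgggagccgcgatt
Cd36: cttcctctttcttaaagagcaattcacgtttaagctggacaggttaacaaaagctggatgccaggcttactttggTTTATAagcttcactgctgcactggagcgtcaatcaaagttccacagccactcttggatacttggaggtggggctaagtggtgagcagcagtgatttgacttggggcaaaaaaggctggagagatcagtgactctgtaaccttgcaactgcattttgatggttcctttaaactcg
The Fabp3 match begins 35 bases before the start and lies on the plus strand, and these letters or their reverse complement TTAAATA occur in 4.16% of 33469 promoter windows of this length. The motif TATTTAA was added to the search after the Fabp3 sequence had been read. The Cd36 match begins 175 bases before the start and reads TATAAA on the minus strand, a motif present on either strand in 12.9% of the windows. AGGTCA, the core element bound by nuclear receptors such as the PPARs, was in neither window on either strand, and it is in 14.1% of all windows. The motifs CCAAT (34.0% of windows), GGGCGG (30.5%) and CACGTG (5.59%) were also in neither. Only exact matches within these 250 bases were searched, so variant or more distant elements would be missed. The bases G and C made up 65.6% of the Fabp3 window and 45.6% of the Cd36 window, against a median of 51.2% over all windows.

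None of the 3 genes differed between groups past the threshold in any of the 3 comparisons. The test was limma on log2(FPKM + 1) over the 17397 genes that reached 1 FPKM in 6 or more libraries, with a threshold of 0.05 on the adjusted p. Between SHR and WKY 0 of 3 were called, where 24.8% of all genes tested were called. Between QDG and SHR 0 of 3 were called, against 0.293% of all genes, and between QDG and WKY 0 of 3, against 20.9%. With 3 genes, these counts are not set apart from the background. At an unadjusted p under 0.05 there was 1 result in the 9 tests, that of Fabp3 between QDG and WKY. The values of the groups overlapped for every one of the 3 genes in every comparison. Of all genes, 12.5% did not overlap between SHR and WKY, 1.15% between QDG and SHR and 10.4% between QDG and WKY. With 3 genes, the lack of a separated one is not set apart from these shares either. In bulk tissue, fewer cells of a type and less RNA per cell cannot be told apart.

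Lpl was at a similar level in all 3 groups. Its values were 705, 716, 581, 621, 615 and 642 FPKM in QDG replicates 1 to 6. In SHR replicates 1 to 6 they were 667, 701, 680, 684, 610 and 700 FPKM. In WKY replicates 1 to 6 they were 684, 684, 685, 659, 642 and 754 FPKM. The ranges of the groups overlap, and the whole span from the lowest to the highest library is 1.30-fold. Lpl averaged 647 ± 53.5 FPKM in QDG, 674 ± 33.8 in SHR and 685 ± 38.4 in WKY (SD, n = 6 each). The order of the means was thus QDG, SHR, WKY from low to high, with neighbours closer than their spread.

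The log2 fold change of Lpl was -0.02 between SHR and WKY (SE 0.06, limma adjusted p = 0.811). Its 95% confidence interval reached from 0.905-fold to 1.07-fold. Between QDG and SHR it was -0.06 (SE 0.06, limma adjusted p = 0.770), with an interval from 0.881-fold to 1.04-fold. Between QDG and WKY it was -0.08 (SE 0.06, limma adjusted p = 0.348), with an interval from 0.867-fold to 1.03-fold. With 6 libraries a group, differences within these intervals could not be told from none. After leaving out SHR replicate 5 or WKY replicate 6 in turn, the difference between SHR and WKY was 0.01 in place of -0.02, and without WKY replicate 5 it was -0.04. Without QDG replicate 3, the lowest library, QDG against SHR was -0.03 and QDG against WKY -0.05. After quantile normalization SHR against WKY was -0.10 and QDG against WKY -0.15, and none of these values was called.

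ENSRNOG00000005906, listed as Cd36, was low in every library of all 3 groups. It was at 2.66, 2.41, 2.36, 2.28, 1.91 and 2.54 FPKM in QDG replicates 1 to 6. In SHR replicates 1 to 6 it was at 2.42, 2.37, 2.90, 2.08, 2.62 and 1.93 FPKM. In WKY replicates 1 to 6 it was at 1.84, 2.98, 2.79, 1.65, 1.41 and 2.08 FPKM. WKY held both the lowest and the highest library, so the QDG and SHR ranges lie inside the WKY range. The means were 2.36 ± 0.260 FPKM in QDG, 2.39 ± 0.351 in SHR and 2.12 ± 0.630 in WKY (SD, n = 6 each). No strain pattern of presence and absence was seen in this row.

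The log2 fold change of this row was 0.13 between SHR and WKY (SE 0.11, limma adjusted p = 0.416), with an interval from 0.935-fold to 1.29-fold. Between QDG and SHR it was -0.01 (SE 0.11, limma adjusted p = 0.989), from 0.847-fold to 1.17-fold. Between QDG and WKY it was 0.13 (SE 0.11, limma adjusted p = 0.484), from 0.929-fold to 1.28-fold. At this level the added 1 FPKM understates the difference. These intervals are folds of FPKM + 1, so they are also narrower than intervals for FPKM itself. With a pseudocount of 0.01 the SHR against WKY value was 0.21 (SE 0.16) and the QDG against WKY value 0.20 (SE 0.16), neither of them called. Both differences from WKY depended on which WKY library was left out. Without WKY replicate 5, the lowest library, both were 0.06, and without WKY replicate 2, the highest, they were 0.21 for SHR against WKY and 0.20 for QDG against WKY, none of them called. Without SHR replicate 3 or without QDG replicate 5, QDG against SHR was 0.03. Whether SHR carried less Cd36 RNA than WKY is not answered by this row.

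Fabp3 had the largest difference of the 9 relative to its error, with the highest mean in QDG and the lowest in WKY. It was at 1143, 1210, 1179, 1084, 1129 and 1030 FPKM in QDG replicates 1 to 6. In SHR replicates 1 to 6 it was at 1116, 1032, 1138, 1125, 951 and 1154 FPKM. In WKY replicates 1 to 6 it was at 1069.9, 1019.6, 1035, 1018, 801 and 1067 FPKM. In QDG 5 of 6 libraries lay above the highest WKY library, as did 4 of 6 in SHR, while QDG replicate 6, SHR replicate 2 and SHR replicate 5 lay within the WKY range. WKY replicate 5 lay apart below the others. The means were 1129 ± 64.8 FPKM in QDG, 1086 ± 78.6 in SHR and 1002 ± 101 in WKY (SD, n = 6 each).

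Between QDG and WKY the log2 fold change of Fabp3 was 0.18 (SE 0.07, limma unadjusted p = 0.0208, adjusted p = 0.0838), a difference of 1.13-fold with an interval from 1.02-fold to 1.25-fold. The two-sided exact permutation test of this single gene, which is not adjusted for the 9 tests, gave p = 0.0108, where the smallest p that 6 against 6 libraries allow is 0.00216. Without WKY replicate 5 the log2 fold change was 0.11 (limma adjusted p = 0.161, exact permutation p = 0.0238). That library had the lowest relative depth of all, 0.879 of WKY replicate 1, and the highest sum of FPKM, 676288. The part of either in the result was not tested. Between SHR and WKY the log2 fold change was 0.12 (SE 0.07, limma adjusted p = 0.235), from 0.981-fold to 1.20-fold, and 0.06 without WKY replicate 5. Between QDG and SHR it was 0.06 (SE 0.07, limma adjusted p = 0.837), from 0.940-fold to 1.15-fold, and 0.02 without SHR replicate 5. The comparisons share libraries, so their directions are not independent of each other.

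**Figure D1:**
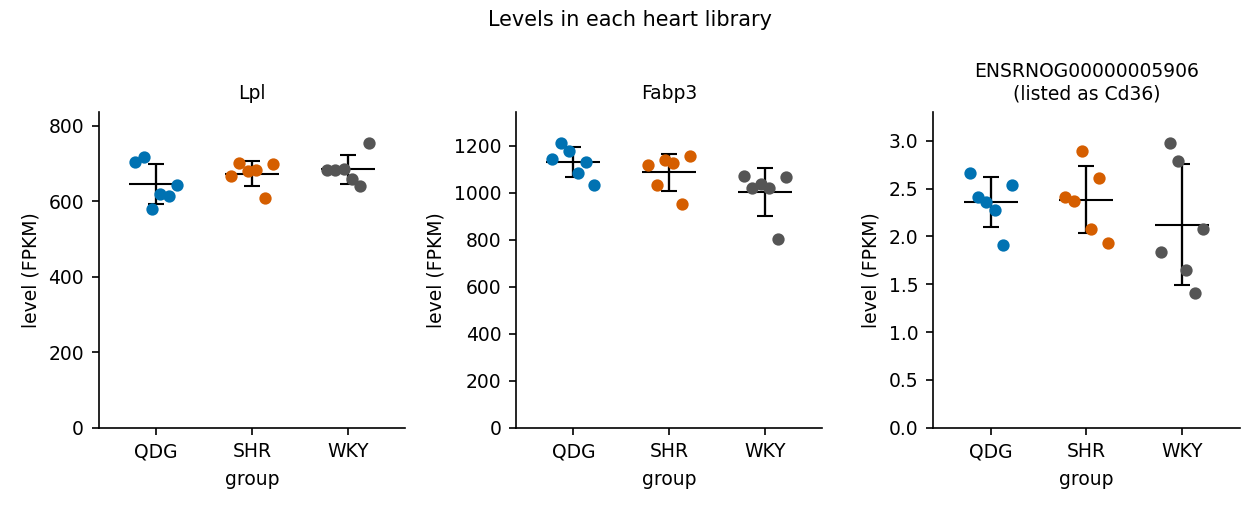
Level in FPKM of Lpl, Fabp3 and ENSRNOG00000005906 (listed as Cd36) in each of the 18 libraries, by group, with 1 point per library and the mean and SD in black; the axes start at 0. Lpl lies between 581 and 754 FPKM and ENSRNOG00000005906 between 1.41 and 2.98 FPKM with overlapping groups, while 5 of 6 QDG libraries lie above the highest WKY library in Fabp3.

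**Figure D2:**
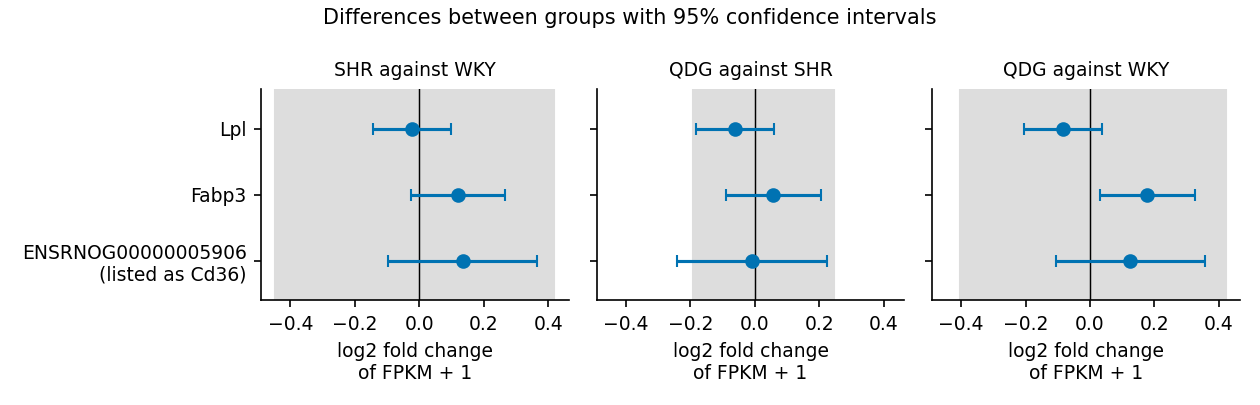
Log2 fold change of FPKM + 1 for each gene in the 3 comparisons (first group minus second), with 95% confidence intervals from limma; the grey band holds the middle 90% of all 17397 genes tested. The interval of Fabp3 between QDG and WKY, from 1.02-fold to 1.25-fold, is the one that does not include 0 on this scale, and no adjusted p is under 0.05.

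The FPKM sums of the libraries differed between groups in the share of the most abundant gene. The most abundant gene took 12.8% to 14.0% of all FPKM in QDG, 12.8% to 14.9% in SHR and 16.0% to 21.1% in WKY. The 4 most abundant genes took 29.97% to 35.7% in QDG, 30.7% to 34.8% in SHR and 31.9% to 37.9% in WKY. These last ranges overlap. FPKM are scaled to a total of fragments, and shares of the FPKM sum do not give the makeup of that total. After rescaling to FPKM sums without these 4 genes, Fabp3 was 0.13 higher on the log2 scale in QDG than in WKY (limma adjusted p = 0.299). It was 0.08 higher in SHR than in WKY. Lpl was then -0.13 for QDG against WKY and -0.06 for SHR against WKY, so the Fabp3 difference was smaller and the Lpl difference larger on that scale, and neither was called.

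A ratio of 2 genes within a library does not depend on this scaling. Fabp3 over Lpl was 1.62, 1.69, 2.03, 1.75, 1.84 and 1.60 in QDG replicates 1 to 6. It was 1.67, 1.47, 1.67, 1.65, 1.56 and 1.65 in SHR, and 1.56, 1.49, 1.51, 1.54, 1.25 and 1.41 in WKY. Every QDG library lay above every WKY library, and SHR overlapped both groups. Such a separation of QDG from WKY was common: of the ratios of 17396 genes tested to Lpl, 10.1% did not overlap between these groups. The ratio averaged 1.75 ± 0.159 in QDG, 1.61 ± 0.0804 in SHR and 1.46 ± 0.117 in WKY (SD, n = 6 each). The other ratios overlapped, with Lpl over ENSRNOG00000005906 at 246 to 322 in QDG and 230 to 456 in WKY, and Fabp3 over ENSRNOG00000005906 at 406 to 592 in QDG and 343 to 618 in WKY. The ratios were computed after the levels were seen, so they are given as a description with no test.

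**Figure D3:**
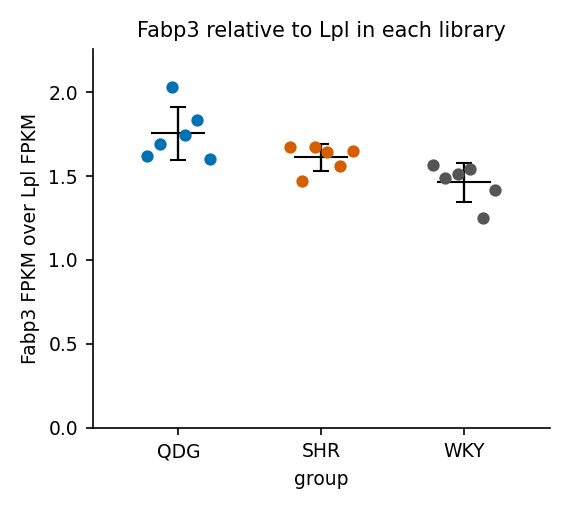
Fabp3 FPKM divided by Lpl FPKM in each library, by group, with 1 point per library and the mean and SD in black; the axis starts at 0. The QDG libraries lie between 1.60 and 2.03, above the WKY libraries at 1.25 to 1.56, and SHR lies from 1.47 to 1.67.

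Within groups, Lpl and Fabp3 were among the steadier of the abundant genes. The coefficient of variation (CV, SD over mean, averaged over the groups) was 6.30% for Lpl and 7.68% for Fabp3. The 98 genes with a mean of at least 500 FPKM had a median CV of 10.6%, and 18 of them were steadier than Lpl and 27 steadier than Fabp3. ENSRNOG00000005906 had a CV of 18.5%, close to the median of 18.5% over the 6641 genes with a mean of 1 to under 4 FPKM. Its CV was 11.0% in QDG, 14.7% in SHR and 29.7% in WKY. The 98 abundant genes were also called more often than all genes together, 36.7% of them between SHR and WKY and 30.6% between QDG and WKY. Between QDG and SHR limma called 0 of the 98, with 3 at an unadjusted p under 0.05. Most of the 98 genes were thus uncalled in each comparison, as Lpl and Fabp3 were.

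**Figure D4:**
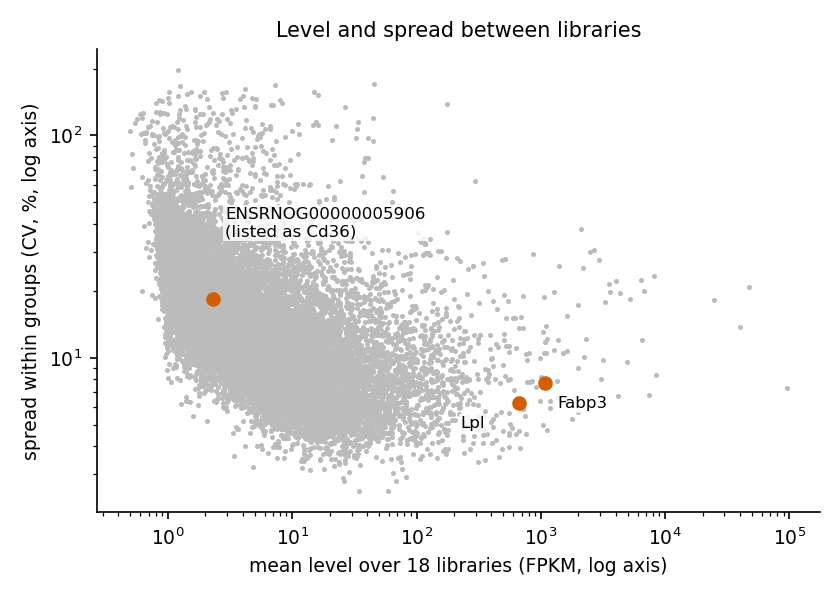
Mean level over the 18 libraries against the spread within groups (CV averaged over the 3 groups, in %), both on log axes, with 1 grey point per gene tested and the 3 genes in colour. Lpl and Fabp3 lie at the right with CVs of 6.30% and 7.68%, and ENSRNOG00000005906 lies at 2.29 FPKM and 18.5%.

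The 3 genes moved together only loosely from library to library. After the group means were subtracted, the log2 levels of Lpl and Fabp3 had a Pearson r of 0.49 over the 18 libraries (Spearman rho 0.54), and 0.45 without WKY replicate 5. ENSRNOG00000005906 had r = 0.19 with Lpl and 0.25 with Fabp3, and these were 0.07 and -0.21 without WKY replicate 5. These values are descriptions, and all points share the scaling of their library. No background of r over other gene pairs was computed.

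Other genes followed each of them more closely, by Pearson r of log2(FPKM + 1) over the 18 libraries after the group means were subtracted. For Lpl the closest were ENSRNOG00000061587 (r = 0.89) and ENSRNOG00000004449 (r = 0.88). For ENSRNOG00000005906 they were ENSRNOG00000014187 (r = 0.86) and ENSRNOG00000004789 (r = 0.86). For Fabp3 they were ENSRNOG00000008566 (r = 0.91, rho = 0.72) and NONRATG021483.2 (r = 0.89, rho = 0.60), where rho is well below r. With the group means kept, ENSRNOG00000004449 was again among the closest 2 of Lpl (r = 0.83), after ENSRNOG00000015736 (r = 0.87). For Fabp3 the closest were then ENSRNOG00000006976 (r = 0.85) and ENSRNOG00000016511 (r = 0.84). For ENSRNOG00000005906 they were NONRATG024517.2 (r = 0.83) and ENSRNOG00000014722 (r = 0.82). These identifiers carry no names in the sources used here, and each pair is the highest of 17397 genes searched.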

How the data were processed

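Heart RNA was rRNA-depleted and sequenced on libraries made with a NEB kit for Illumina, per the labels' protocols. The deposited values are read as FPKM made by the authors; the files do not state the unit, which was read from fractional values and sums of 598626 to 676288 per library, and TPM over a larger gene set is possible. limma is named in the submitters' processing notes, with no version. The sources used here give no aligner, counter, genome build, annotation or strand setting. Absolute depth is unknown. Relative depth, read from ratios between libraries in genes averaging under 0.3 FPKM, was 0.879 to 1.09 of WKY replicate 1; 13.6% to 15.6% of those ratios stood within 0.01 (log2) of the value taken. Library pairs correlated at 0.971 to 0.988 (log2), and 0 pairs held identical values.

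The test on log2(FPKM + 1) was limma 3.58.1 under R 4.3.3, with statmod 1.5.0 (trend, robust, 1 mean per group, 18 libraries, two-sided, Benjamini-Hochberg over 17397 genes). The fit was tested on simulated data with known changes, by whether the median estimate came near the true change. Those changes were larger than the differences of the 3 genes. Whether differences of this size would be called was not tested. Exact permutation tests were two-sided. Motifs, ratios and plots were made in Python 3.11.15. The genes, lists and tests were chosen with earlier results of these data known. Named genes are the 3 on the list and, for each, the 2 of highest correlation. A list of other fatty acid genes and lists of cell type markers, given by symbol, could not be matched to identifiers and are not analysed here. Alternatives were 2 scalings between libraries, other filters and pseudocounts, 12 compared libraries only, sample weights, a replicate block, an exact permutation test and leaving out each library. Chosen after seeing the data were rescaling without the 4 most abundant genes and leaving out the libraries that stood apart.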

Additional observations from a re-analysis of the deposited data

Results flagged for a closer look

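In 2 of 18 groups of values examined (3 levels and 3 ratios in 3 groups), 1 library lay farther from the rest of its group than a test for single outlying values at the 95% level allows, where chance gives about 1 in 20. The 3 ratios are built from the 3 levels, so the 18 groups are not independent. Fabp3 was at 801 FPKM in WKY replicate 5, against 1018 to 1069.9 in the other WKY libraries. This library was also the lowest WKY library in Lpl, at 642 FPKM, and in ENSRNOG00000005906, at 1.41 FPKM. Lpl was at 610 FPKM in SHR replicate 5, against 667 to 701 in the other SHR libraries. Its gap to the next library was 0.6252 of the group's range, only just past the limit. Lpl in WKY replicate 6, with a gap of 0.6211 of the range, was not flagged. SHR replicate 5 was also the lowest SHR library in Fabp3, at 951 FPKM, but not in ENSRNOG00000005906, where it was at 2.62 FPKM. The part of depth or of the FPKM sum in these values was not tested. The relative depth was 0.879 in WKY replicate 5 and 1.01 in SHR replicate 5. The FPKM sums were 676288 in WKY replicate 5 and 623191 in SHR replicate 5.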

How the results depend on the processing

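Of 273 alternative values for the 9 differences of the 3 genes, 263 kept their sign and their side of the threshold. Many of them could not turn the sign, because they repeat the main log2 fold change by construction. These are the fits without a library of the uncompared group, the fit to the compared libraries alone and the fit without a filter. The replicate block and the exact permutation test with every library kept are also of this kind. In 3 of the 273, all for Fabp3 between QDG and WKY, the p-value fell under 0.05. The replicate block (0.18, limma adjusted p = 0.0494) was adjusted over all genes, as the main test was. The exact permutation test (0.18, p = 0.0108) and the same without WKY replicate 5 (0.11, exact permutation p = 0.0238) were not adjusted. They are thus no gain of a call, since the limma unadjusted p of the main fit was 0.0208. Over the alternatives of this difference, limma adjusted p ranged from 0.0494 to 0.334. The sign turned in 7, none of them called: ENSRNOG00000005906 for QDG against SHR (main value -0.01) was 0.0034 with sample weights, 0.012 without SHR replicate 5 and likewise without both SHR replicate 5 and WKY replicate 5, and reached from -0.049 to 0.033 with each library left out; Lpl for SHR against WKY reached from -0.041 to 0.0052. With each library left out, Fabp3 for QDG against WKY reached from 0.11 to 0.20, lowest without WKY replicate 5. With a filter at 5 FPKM, ENSRNOG00000005906 was not tested. The 51 genes called between QDG and SHR numbered 104 when samples were weighted, 79 after quantile normalization, 77 after median centring and 30 when no filter was used, and 28 to 69 with each library left out; the cause was not tested. Rescaling without the 4 most abundant genes turned the calls between SHR and WKY to 1583 higher and 2815 lower, against 2122 and 2184 in the deposited scaling, and between QDG and WKY to 1567 higher and 2070 lower, against 2041 and 1601. The replicate numbers come from the sample titles, and whether same-numbered libraries share an effect was not tested. Deviations of same-numbered libraries correlated at -0.06 to 0.19. In 5 of 18 cases the same-numbered library was the closest one, 3 of them among the 6 of SHR against WKY. With 6 candidates for each library, some such matches arise without any pairing. With the replicate block, 4760 genes were called between SHR and WKY, 40 between QDG and SHR and 4028 between QDG and WKY. The main fit called 4306, 51 and 3642. The SE of Fabp3 between QDG and WKY was 0.0607 with the block, against 0.0704 in the main fit. It was also smaller for Lpl and ENSRNOG00000005906. Precision is limited by 6 libraries a group and an unknown absolute depth.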

Other observations

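The abundant rows were searched for any that were much lower in SHR than in WKY. Of 95 genes with a mean of at least 500 FPKM in WKY, 1 had a mean in SHR below 0.5 of that in WKY. This was ENSRNOG00000061299, at 196 ± 55.8 FPKM in QDG, 208 ± 36.4 in SHR and 649 ± 157 in WKY (SD, n = 6 each). Rows of the opposite kind were more frequent, as 5 of 95 genes with a mean of at least 500 FPKM in SHR had a mean in WKY below 0.5 of that in SHR. The values of ENSRNOG00000061299 lay between 131 and 288 FPKM in QDG, between 151 and 251 in SHR and between 524 and 958 in WKY. The highest was WKY replicate 5, the library flagged in Fabp3, and the other WKY libraries lay between 524 and 634. ENSRNOG00000061299 was chosen after its values were seen, by a search that asked for a high WKY and a low SHR mean. Its difference between these groups therefore follows from the search and gets no test. The sources used here give it no name, and no link to Cd36 or to the other genes is drawn.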
